A study of Saccharomyces cerevisiae with 24 samples.

Results

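The transcripts of budding yeast carrying Sfp1-K655/657Q were compared with those of yeast carrying Sfp1-K655/657R 15 min after glucose was given back to cells in raffinose. Of the 24 RNA-seq libraries of the study, 4 enter this comparison directly, 2 for each mutant, and 6357 of the 6612 transcripts in the deposited table had a mean of at least 1 TPM (a length-corrected share of the transcripts of a library) over the libraries fitted and were tested. The labels give both mutants and the WT strain as LPY cells with SFP1-MYC::KanMX, a MYC tag on Sfp1. They also give mutant marker alleles of CAN1, URA3, TRP1, LEU2, HIS3 and ADE2. The strain list of the study gives a MATa parent, LPY3431, with a 13MYC tag and marker mutations in HIS3, LEU2, TRP1 and URA3 only. The sources thus differ on ADE2 and CAN1. The same list holds another MATa parent, which has all the marker mutations of the labels. K655/657R and K655/657Q strains made from that parent are listed with no MYC tag. The sources used here do not settle which parent the libraries came from. HIS3 and TRP1 were under the filter of 1 TPM. They differ in a pair of Sfp1 lysines, at the positions that the name K655/657 gives, which are kept in WT, replaced by arginine in K655/657R, where they cannot be acetylated, and replaced by glutamine in K655/657Q as a mimic of the acetylated state. Each strain was sampled in YPD (2% glucose), after a shift to 2% raffinose (0 min), and 15 and 30 min after glucose was added to 2%, in 2 replicates per strain and condition. The substitutions were present throughout growth, so a difference at 15 min can also have been there before glucose, and the raffinose values are given below for that reason.

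Sfp1, a transcription factor with zinc fingers, enters the nucleus when nutrients are plentiful and promotes the genes for ribosomal proteins (RP genes) and for ribosome biogenesis (RiBi genes), the factors that process rRNA and assemble the subunits. Glucose given to cells that lack it activates the Ras and protein kinase A pathway and TORC1, which raise these growth genes and lower the stress genes read by Msn2 and Msn4. The codons of both lysines lie in the single exon of SFP1 (YLR403W, chromosome XII, 925568 to 927619, forward strand, 683 residues), just ahead of a zinc-finger region. The RefSeq R64 sequence of codons 650 to 662 (chrXII:927515-927553) is shown because it holds the only positions at which the 2 mutants were designed to differ, and the codons of both lysines, K655 and K657, are in capitals.
SFP1 codons 650 to 662: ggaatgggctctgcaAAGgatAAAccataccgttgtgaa

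In the 6 libraries at 15 min, 6472 to 6483 transcripts were above 0, the median was 14.7 to 16.2 TPM, and RP transcripts took 31.7% to 36.4% of all TPM. The deposited values are TPM, so the read depth and the counting error of each library are unknown. Each library was scaled by its median-of-ratios size factor (0.960 to 1.05 at 15 min) to give the scaled TPM used below, which were tested as log2(scaled TPM + 1) with limma, with 1 mean per strain and condition over 23 libraries. Fold changes are on that scale, which understates the change of low genes. A gene was called at an adjusted p under 0.05 (Benjamini-Hochberg) where its fold change also reached 1.5. The labels do not say whether replicates were separate cultures, so p-values measure the spread between these samples, which may be technical. Between replicates at 15 min the root mean square difference was 0.21 in K655/657Q, 0.23 in K655/657R and 0.24 in WT on the log2 scale. For a single gene the smallest p of an exact two-sided permutation test over 2 and 2 libraries is 0.333. Marker genes matched the stated mating type a: the a-factor gene MFA1 had a scaled TPM of 6585 and 7138 in K655/657Q and of 5963 and 4571 in K655/657R, while the alpha-factor gene MF(ALPHA)1 stood at 11.5 and 12.2 and at 9.99 and 5.79. SFP1 itself did not separate the mutants, with 18.3 and 18.6 in K655/657Q, 18.5 and 18.7 in K655/657R, and 21.2 and 21.4 in WT.

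At 15 min, 328 genes were called between the mutants (5.16% of those tested), 151 higher in K655/657Q (2.38%) and 177 lower (2.78%). The 2 mutants did not overlap at 64.1% of all genes tested, so non-overlap by itself is common here. Without the fold change threshold, 986 genes passed higher (15.5%) and 869 lower (13.7%), and the median of all genes was 0.02 on the log2 scale. Most called changes were modest: 23 of the genes called higher and 22 of those called lower differed by 2-fold or more. Among the genes lower in K655/657Q were 57 RiBi genes and genes for making arginine, lysine and branched-chain amino acids. Among those higher were genes of the stress response, storage carbohydrates and chaperones, the glycine cleavage genes, the CUP1 metallothioneins and the peroxisomal citrate synthase gene CIT2. The split between higher and lower calls depends on the scaling. Higher calls made up 46.0% of all calls here, 70.5% with TPM as deposited, 54.0% with upper quartile scaling and 9.35% when ACT1 was used as the reference, because ACT1 was 0.24 higher in K655/657Q (1483 and 1496 against 1215 and 1317) and using it moved the median of all genes by -0.22. Directions below hold for median-of-ratios scaling, and those that turn under another scaling are named.

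**Figure D1:**
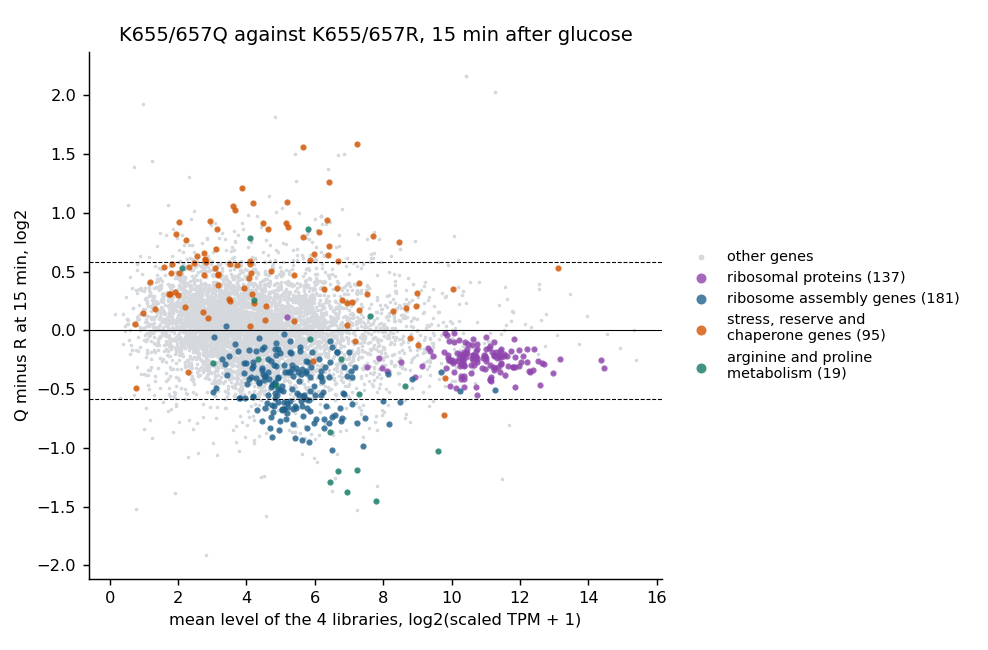
Each point is 1 of the 6357 genes tested, with the mean level of the 4 libraries at 15 min on the x axis (log2 of scaled TPM + 1) and the log2 fold change of K655/657Q over K655/657R on the y axis. Coloured points are members of 4 gene groups, with their number in brackets, and dashed lines mark a 1.5-fold difference. Of 181 ribosome assembly genes 180 lie below 0, the 137 ribosomal protein genes form a narrow cloud around -0.25, and most of the 95 stress, reserve and chaperone genes lie above 0.

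RiBi genes were lower in K655/657Q. Of 181 genes in 4 lists of assembly factors, 57 (31.5%) were called lower and none higher, against 2.78% lower among all genes, and the median log2 fold change was -0.45. A further look without the fold threshold gave 148 of 181 lower, against 13.7% of all genes, and 180 of 181 had a value below 0. Among the 58 genes of the small subunit processome, the large particle in which the 18S rRNA precursor is folded and cut, 20 were called lower (median -0.50). Among 88 factors of the pre-60S particle, which matures the large subunit, 31 were called lower (median -0.48). Of 18 factors that finish the small subunit in the cytoplasm and nucleus, 3 were called lower (median -0.36), as were 3 of 20 core snoRNP and rRNA modification genes (median -0.36). The mean of log2 levels over the 181 genes was 5.25 and 5.11 in the K655/657Q libraries, 5.65 and 5.66 in K655/657R, and 5.59 in both WT libraries. The number called rests in part on K655/657Q replicate 2, the lowest library: 30 were called lower without it and 76 without K655/657Q replicate 1. It was also 30 with TPM as deposited, with the median then at -0.36.

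MAK16, which encodes a pre-60S protein, was the RiBi gene with the largest difference. Its scaled TPM was 72.8 and 54.3 in K655/657Q, 131 and 127 in K655/657R, and 114 and 94.0 in WT. K655/657Q over K655/657R came to -1.02 on the log2 scale (limma, standard error 0.12, adjusted p = 3.2e-05). Both K655/657Q libraries lay below every library of the other strains, but the largest changes were picked only where the mutants did not overlap. NOG2, a GTPase that docks on the pre-60S particle before export, stood at 38.9 and 31.2 in K655/657Q against 67.7 and 67.2 in K655/657R (log2 fold change -0.93, standard error 0.09, adjusted p = 6.5e-06). SLX9, which takes part in export of the small subunit precursor, stood at 31.4 and 28.7 against 59.0 and 56.2 (-0.92, adjusted p = 2e-06). For NOG2 and SLX9, too, both K655/657Q values lay below both K655/657R values, while the mutants did not overlap at 64.1% of all genes. BUD20, a shuttling pre-60S export factor, had 139 and 104 against 232 and 245 (-0.99), and BUD21 and UTP14, both of the processome, had -0.95 and -0.83. NHP2, a core protein of the H/ACA snoRNPs that guide pseudouridylation, had 241 and 195 against 382 and 375 (-0.80). RPF2, which brings 5S rRNA into the pre-60S particle and was measured by RT-qPCR in the study, was lower at 52.4 and 47.1 against 85.0 and 83.5 (-0.75, adjusted p = 6.5e-05). Other RiBi genes of that RT-qPCR set were not called, with log2 fold changes of -0.51 for NOB1, -0.40 for HAS1, -0.31 for NUG1 and -0.03 for NSA1.

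RiBi promoters are known for a pair of elements, PAC and RRPE, bound in yeast by Dot6 and Tod6 and by Stb3, repressors that TORC1 and protein kinase A inactivate. In 5796 promoter windows of 300 bases, reaching from 400 to 101 bases before the start codon in the RefSeq R64 genome, the PAC core GATGAG on either strand was in 17.8% and the RRPE core AAAATTTT, which is its own reverse complement, in 9.30%. The study cites earlier work in which Sfp1 itself bound, in vitro, a motif that contains this RRPE core. Of the 181 RiBi windows, 56.9% held PAC and 61.3% RRPE. Translation factor windows held RRPE in 64.1%, although only 2 of those 39 genes were called lower. Among the 151 windows of genes called lower in K655/657Q, the shares were 45.0% and 49.7%, and among the 144 windows of genes called higher, 17.4% and 2.08%. The windows of MAK16 (chrI:101246-101545, reverse strand) and NOG2 (chrXIV:723213-723512, reverse strand) are shown because these called genes hold both elements close together, in capitals, and they read 5′ to 3′ toward the gene. CTCATC in the NOG2 window is PAC on the other strand. A match is a run of letters and does not show that a factor was bound.
MAK16: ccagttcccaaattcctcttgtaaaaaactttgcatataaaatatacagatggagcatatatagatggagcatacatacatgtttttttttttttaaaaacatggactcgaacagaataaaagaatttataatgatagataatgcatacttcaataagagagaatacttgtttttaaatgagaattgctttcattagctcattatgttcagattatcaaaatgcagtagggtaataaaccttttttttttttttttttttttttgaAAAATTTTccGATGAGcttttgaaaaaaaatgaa
NOG2: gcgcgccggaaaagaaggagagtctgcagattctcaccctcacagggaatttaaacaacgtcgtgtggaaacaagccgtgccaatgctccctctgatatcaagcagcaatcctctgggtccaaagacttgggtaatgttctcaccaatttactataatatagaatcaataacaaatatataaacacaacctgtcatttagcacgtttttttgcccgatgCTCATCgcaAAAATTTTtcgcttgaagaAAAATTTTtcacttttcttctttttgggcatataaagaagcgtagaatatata
In MAK16 the RRPE match starts 134 and the PAC match 124 bases before the start codon. In NOG2 the PAC match starts at 181 and the RRPE matches at 172 and 153.

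**Figure D2:**
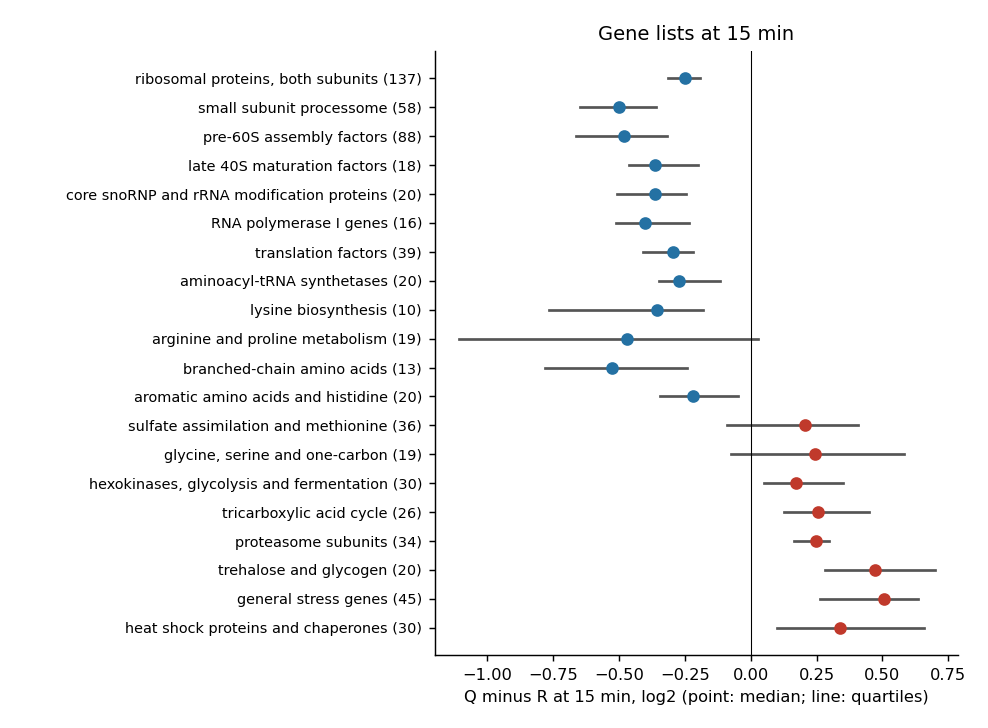
Medians of the log2 fold change of K655/657Q over K655/657R at 15 min are shown as points for 20 gene lists, with lines from the lower to the upper quartile and the number of members in brackets. RiBi lists sit near -0.4 to -0.5 and the stress, trehalose and chaperone lists between 0.34 and 0.51; with ACT1 as the reference every median moves down by about 0.2, which puts the small positive medians of the sulfate and glycolysis lists below 0.

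RP genes had smaller differences, most of them below 0. None of the 137 was called by limma, against 2.78% called lower among all genes. Yet 111 were lower at an unadjusted p under 0.05, which 2579 of all 6357 genes passed in either direction. Without the fold threshold 87 were lower at an adjusted p under 0.05 (13.7% of all genes were), and 136 of 137 had a value below 0. Over the 5803 genes with a known coding length, the fold change moved with coding length (Spearman 0.158, against -0.017 and -0.045 between replicates of K655/657Q and of K655/657R) and, over the genes tested, with the mean level (Spearman -0.196). RP genes are short and abundant, and the part of length and level in their values was not tested. Their median was -0.25 and the middle part of the list was narrow, from -0.31 to -0.19 between the quartiles. RPS26B, a small subunit protein at the mRNA exit, showed the largest difference, with 1466 and 1352 in K655/657Q, 2018 and 2111 in K655/657R and 1728 and 1486 in WT (-0.55, adjusted p = 0.00011, just under the 1.5-fold threshold). At the other end, RPL15B had 39.9 and 34.1 against 31.0 and 37.4, with overlapping groups. RPL2B and RPS11B, the RP genes of the RT-qPCR set, had -0.20 and -0.23. The median was -0.15 with TPM as deposited and -0.48 with ACT1 as the reference, where 21 RP genes were called lower. Without K655/657Q replicate 1, 2 were called lower. Promoter windows of RP genes held PAC in 13.1% and RRPE in 8.76%, near the shares of all windows.

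Other parts of the machinery that makes and uses ribosomes had medians below 0, with few genes called. RNA polymerase I transcribes the rRNA precursor, and 3 of its 16 genes were called lower (18.8%, against 2.78% of all genes, median -0.40): RPA14, with 126 and 129 in K655/657Q against 223 and 197 in K655/657R, RPA34, with 73.2 and 65.8 against 116.5 and 112, and RPA43, with 34.1 and 30.7 against 52.9 and 53.4. The groups did not overlap for any of these, nor did they at 64.1% of all genes. Of 22 genes for RNA polymerase III and subunits shared with RNA polymerase I, only RPC53 was called (-0.66), a share of 4.55% that is near the 2.78% of all genes, and 9 of the 22 had a value above 0 (median -0.14). RPC53 was not called without K655/657Q replicate 2 (-0.51). Of 39 translation factor genes, 2 were called lower (5.13%, against 2.78% of all genes, median -0.30), both for subunits of eIF3: NIP1 (-0.60) and TIF35 (-0.62), calls that were lost without K655/657Q replicate 1 for NIP1 (-0.51) and without replicate 2 for TIF35 (-0.55). None of 20 aminoacyl-tRNA synthetase genes was called by limma. At an unadjusted p under 0.05, 14 were lower, a threshold that 2579 of all 6357 genes passed in either direction. At an adjusted p under 0.05, 10 were lower, as were 13.7% of all genes. SSB1, an Hsp70 chaperone that folds nascent chains on the ribosome, fell by 0.72, with 664 and 704 against 1165 and 1091.

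Synthesis genes for arginine, lysine and branched-chain amino acids were the other large group lower in K655/657Q, unlike methionine and one-carbon genes (below). Yeast controls these pathways through Gcn4, whose mRNA is translated when uncharged tRNA accumulates, and arginine genes also through the ArgR/Mcm1 repressor. Of 19 genes of arginine and proline metabolism, 7 were called lower (36.8%, against 2.78% of all genes) and 2 higher (10.5%, against 2.38%). All 7 act in arginine synthesis, among them ARG1, ARG3, ARG4, ARG5,6, ARG7 and ARG8. Both genes called higher serve the breakdown of arginine or proline: CAR2, ornithine transaminase, with 72.2 and 77.2 in K655/657Q against 40.5 and 40.9 in K655/657R (0.86, adjusted p = 1.7e-05), and PUT1, proline oxidase, with 20.3 and 23.1 against 11.6 and 12.7 (0.79). In the whole list 14 genes had a value below 0 and 5 above it, with a median of -0.47, which was -0.33 without K655/657Q replicate 1.

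ARG3, ornithine carbamoyltransferase, stood at 118 and 150 in K655/657Q, 353 and 378 in K655/657R, and 403 and 410 in WT (log2 fold change -1.45, standard error 0.12, adjusted p = 2e-06). ARG4, argininosuccinate lyase, stood at 70.2 and 80.4 against 187 and 207 (-1.38, standard error 0.094, adjusted p = 4.9e-07), with 235 and 231 in WT. Every K655/657Q library lay below every library of the other strains for both genes. The largest falls were picked without overlap between the mutants, so the separation from K655/657R follows from the choice. Also among the 15 largest falls was YER068C-A, an unnamed transcript, with 55.7 and 56.1 against 146 and 145. It was not called over all 24 libraries (-1.36).

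Lysine genes were lower too: 3 of 10 were called (30%, against 2.78% of all genes), none higher, with a median of -0.36. LYS1, saccharopine dehydrogenase, the last step, had 65.8 and 72.9 in K655/657Q against 140 and 150 in K655/657R and 207 and 194 in WT (-1.05, adjusted p = 4.9e-07). LYS2 and LYS20 had -0.85 and -0.84. Among 13 branched-chain genes, 5 were called lower (38.5%) and 1 higher (7.69%, against 2.38% of all genes), with a median of -0.53, including LEU2 (40.3 and 44.7 against 80.5 and 77.7), which all strains carry as a mutant marker allele, and BAT1, the mitochondrial transaminase (160 and 177 against 324 and 286). The gene called higher was BAT2 (0.64), the cytosolic transaminase. In the list of aromatic amino acids and histidine, HIS4, ARO3 and ARO4 were called lower and ARO10, a decarboxylase that breaks amino acids down, higher (0.75), out of 20 (15% lower and 5% higher). HOM3 and HOM2, the first steps from aspartate to threonine and methionine, fell by 0.89 and 0.72. Besides the synthesis genes, the branched-chain permease BAP2 was lower (114 and 131 against 227 and 234, -0.91), while the dicarboxylic amino acid permease DIP5 was higher (59.0 and 70.2 against 29.6 and 34.2, 0.99).

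The Gcn4 core TGACTC, searched on both strands, was in 8.68% of all promoter windows. It was in 68.4% of arginine and proline windows, 69.2% of branched-chain, 50.0% of aromatic and histidine and 40% of lysine windows. Lists with mostly higher calls also held it, in 57.9% of glycine, serine and one-carbon and 30.6% of sulfate and methionine windows. It was in 25.8% of the windows of genes called lower, and in 11.1% of those called higher. The window of ARG4 (chrVIII:141503-141802, reverse strand) is shown as that of the arginine gene with the smallest standard error among those given above, with its match, 179 bases before the start codon, in capitals.
ARG4: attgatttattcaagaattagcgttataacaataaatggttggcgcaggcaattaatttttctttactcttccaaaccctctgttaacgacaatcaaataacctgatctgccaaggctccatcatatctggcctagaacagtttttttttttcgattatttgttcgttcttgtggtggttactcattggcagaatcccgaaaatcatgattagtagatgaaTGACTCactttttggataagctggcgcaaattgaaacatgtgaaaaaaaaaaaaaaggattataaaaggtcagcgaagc

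**Figure D3:**
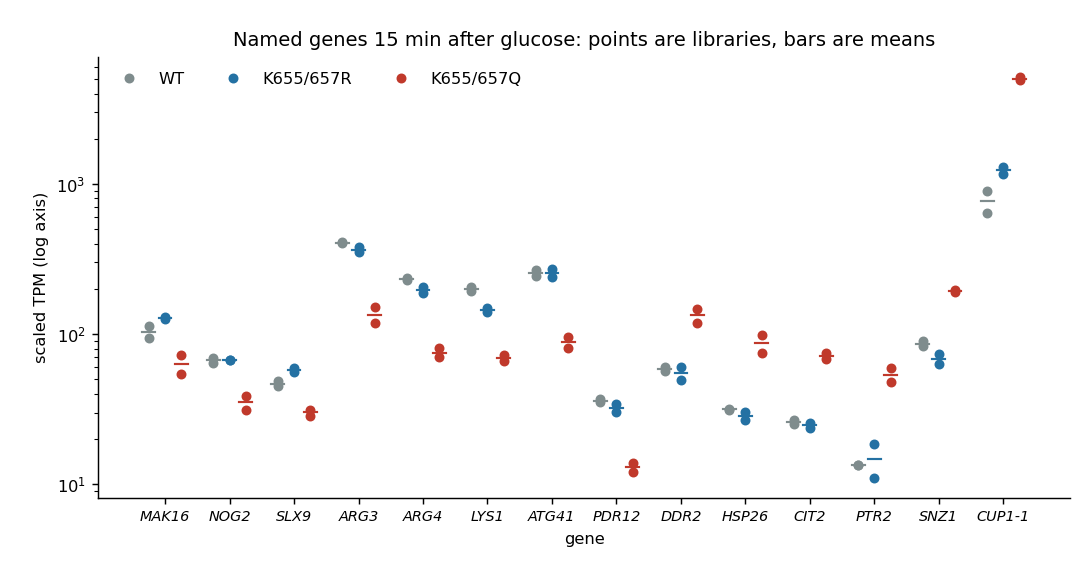
Scaled TPM of 14 named genes at 15 min, on a log axis, with 1 point per library and a bar at the mean for WT, K655/657R and K655/657Q. In each of the 14 genes the K655/657Q points stand apart from those of K655/657R, and for most of them the WT points lie with K655/657R. The largest changes were picked among called genes without overlap between the mutants, so for those genes the separation follows from the choice.

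Stress, storage and chaperone genes were higher in K655/657Q. Of 95 genes in 3 lists, 33 (34.7%) were called higher and 1 lower, against 2.38% higher among all genes, and the median was 0.48. Within it, 15 of 45 general stress genes were called higher (median 0.51), 7 of 20 trehalose and glycogen genes (0.47) and 11 of 30 heat shock and chaperone genes (0.34), the 1 lower being SSB1. The mean log2 level of the 95 genes was 4.91 and 4.96 in K655/657Q, 4.44 and 4.49 in K655/657R, and 4.45 and 4.53 in WT. The median stayed above 0 with ACT1 as the reference (0.28, 18 called higher).

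HSP26, a small heat shock protein that holds unfolded proteins, had 74.9 and 98.8 in K655/657Q, 26.8 and 30.4 in K655/657R and 31.4 and 31.8 in WT (log2 fold change 1.56, standard error 0.12, adjusted p = 1.2e-06). DDR2, a small stress-induced protein, had 119 and 147 against 49.5 and 60.2 (1.26, standard error 0.16, adjusted p = 6.5e-05), and MSC1 had 19.7 and 22.96 against 8.48 and 8.77 (1.21). In all 3 the lower K655/657Q library was above every library of the other strains. For the largest rises, separation from K655/657R was a condition of being picked. HSP12, a membrane-associated stress protein, had 259 and 261 against 97.4 and 75.6 in K655/657R and 44.4 and 62.3 in WT (1.59), but its test carried a standard error of 0.55 and an adjusted p of 0.041, since replicates elsewhere in the series were far apart (890 and 119 for K655/657R in raffinose). Its call was lost when any of the 4 libraries was left out, with fold changes from 1.41 to 1.77. GPH1, glycogen phosphorylase, had 50.2 and 53.8 against 20.9 and 27.4 (1.09), and GSY2, glycogen synthase, 10.5 and 11.2 against 5.56 and 5.49 (0.86), so that genes for building and for breaking glycogen were both higher. Chaperone genes called higher included SSA1, an Hsp70, with 105 and 120 against 54.4 and 62.1 (0.94), HSP82, an inducible Hsp90, with 51.9 and 43.7 against 23.4 and 26.3 (0.91), and HSP104, the disaggregase, with 30.7 and 28.8 against 14.8 and 15.9 (0.91).

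The stress response element AGGGG, bound by Msn2 and Msn4, was searched on both strands and was in 23.9% of all promoter windows. Windows of genes called higher held it in 50.7% and those of genes called lower in 20.5%. For the 95 stress, storage and chaperone genes the share was 64.2%. Within the 95, it was in 80% of general stress and 80% of trehalose and glycogen windows but in 30% of heat shock and chaperone windows. The heat shock element GAANNTTC was in 12.4% of all windows and 14.6% of those of genes called higher. It was in 53.3% of heat shock and chaperone windows. The DDR2 window (chrXV:231856-232155, reverse strand) is shown because it holds the stress element 3 times, all on the other strand as CCCCT, at 248, 203 and 175 bases before the start codon.
DDR2: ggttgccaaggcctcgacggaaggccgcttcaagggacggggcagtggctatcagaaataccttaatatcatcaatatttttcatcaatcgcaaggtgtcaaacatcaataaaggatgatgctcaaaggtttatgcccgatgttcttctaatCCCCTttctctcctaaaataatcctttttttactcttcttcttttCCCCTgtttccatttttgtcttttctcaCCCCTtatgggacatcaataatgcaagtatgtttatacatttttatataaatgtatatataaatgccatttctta

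Methionine and one-carbon genes were called in both directions, more of them higher. Of 36 genes for sulfate assimilation and methionine, 7 were called higher (19.4%, against 2.38% of all genes) and 2 lower (5.56%, against 2.78%; median 0.21, turning to -0.016 with ACT1 as the reference), and of 19 glycine, serine and one-carbon genes, 5 were called higher (26.3%) and 1 lower (5.26%, median 0.25). MET6, methionine synthase, had 79.2 and 98.3 in K655/657Q against 42.0 and 48.8 in K655/657R (0.95, adjusted p = 1.4e-05), and MET17, which fixes sulfide, had 102 and 137 against 55.6 and 68.5 (0.93). GCV1 and GCV2, subunits of the mitochondrial glycine cleavage complex, were higher at 156 and 161 against 68.3 and 86.6 (1.04, adjusted p = 1.2e-05) and at 104 and 115 against 51.3 and 65.4 (0.90). MET13, which makes the methyl group that MET6 uses, went the other way, with 8.08 and 9.13 against 17.1 and 20.0 (-1.02, adjusted p = 2.3e-06).

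Central carbon lists had medians of at most 0.26, with the largest share of calls in the tricarboxylic acid cycle, and single genes stood out. Of 30 genes of glycolysis and fermentation, 2 were called higher (6.67%, against 2.38% of all genes) and 1 lower (3.33%, against 2.78%, median 0.17, -0.052 with ACT1 as the reference). Of 40 genes for gluconeogenesis, the glyoxylate cycle and use of acetate or ethanol, 3 were called higher (7.5%) and 1 lower (2.5%, median 0.10, -0.052 with ACT1). CIT2 had 68.2 and 75.3 in K655/657Q, 25.6 and 23.9 in K655/657R and 25.2 and 26.9 in WT (log2 fold change 1.499, standard error 0.13, adjusted p = 2.1e-06). ALD5, a mitochondrial aldehyde dehydrogenase, had 59.5 and 64.6 against 136 and 164 (-1.26). Of 26 genes of the tricarboxylic acid cycle, 4 were called higher (15.4%, against 2.38% of all genes) and 1 lower (3.85%). In this list 22 had a value above 0. The median was 0.26, with 0.15 to 0.38 when 1 library was left out and 0.047 with ACT1. With ACT1 as the reference none of the 26 was called higher and 2 were called lower. Without K655/657R replicate 1, the log2 fold changes of the called genes CIT1, ACO1 and IDH1 were 0.50, 0.44 and 0.56, short of 1.5-fold. Of 19 hexose transporter and glucose sensor genes, only HXT6 was called (0.70; 0.56 and not called without K655/657R replicate 2). By limma, no gene was called among 27 regulators of glucose repression and induction or 25 genes of the Ras and protein kinase A pathway. None was called among 22 regulators of RP and RiBi genes either. At an unadjusted p under 0.05 the first of these lists held 4 higher and 4 lower, the second 11 and 1, and the third 3 and 7. Such values are common, since 2579 of all 6357 genes passed that threshold in either direction.

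Several of the largest differences fell outside these groups. CUP1-1 and CUP1-2 (chromosome VIII, CUP1-1 at 212535 to 212720) encode copper-binding metallothionein in a repeated array, and their values were equal in every library, so reads could not be told apart between the copies. The scaled TPM was 5135 and 4892 in K655/657Q, 1163 and 1300 in K655/657R, and 897 and 645 in WT (log2 fold change 2.03, standard error 0.22, adjusted p = 1.7e-05). A transcript annotated on the opposite strand (YNCH0007W) overlaps CUP1-1, and reads of both cannot be told apart if strand was not used. YHR052W-A and YHR054W-A, transcripts of the same array, also had equal values to each other and moved with them (2.16). The array copy number of each strain was not measured here. CTR1, the copper importer, was lower (16.4 and 16.6 against 34.7 and 27.9, -0.88), as was FRE1, a reductase that readies copper and iron for uptake (12.3 and 15.6 against 43.3 and 26.6, -1.24). PTR2, the importer of small peptides, had 47.6 and 59.2 against 11.1 and 18.5 (1.82, adjusted p = 1.9e-05), and SNZ1 and its divergent neighbour SNO1, which make vitamin B6, were higher by 1.499 and 1.27.

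Among falls, ATG41, needed for autophagy, had 80.4 and 95.7 against 240 and 271 (-1.53, adjusted p = 5.3e-06), while no other of 25 autophagy genes was called. ARO5 (YGL117W) fell by 1.58, with 12.4 and 13.4 against 37.5 and 43.6. SPO24 had 1848 and 1850 against 4327 and 4568 (-1.27). PDR12, which pumps weak organic acids out of the cell, had 12.1 and 13.8 against 34.2 and 30.1 (-1.25, adjusted p = 1.5e-07). Of the 328 called genes, 73 of those higher and 79 of those lower belonged to none of the lists.

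WT at 15 min lay close to K655/657R in the genes called between the mutants, while for RP genes its replicates differed. Between K655/657R and WT limma called no gene (0 of 6357, 0%), although 998 had an unadjusted p under 0.05, and 3 were called with ACT1 as the reference. Between K655/657Q and WT, 144 genes were called higher (2.27%) and 157 lower (2.47%). The comparisons share libraries, so their values are given only side by side. The genes called higher in K655/657Q against K655/657R had a median of 0.67 for K655/657Q over WT and of -0.09 for K655/657R over WT, and those called lower had medians of -0.62 and 0.10. For RiBi genes the medians were -0.41 (30 of 181 called lower, none higher) and 0.05. For stress, storage and chaperone genes they were 0.44 (29 of 95 called higher, 1 lower) and -0.05. For RP genes they were -0.11 and 0.14, but the WT libraries were apart. Small subunit RP means of log2 levels were 11.03 and 10.86 in WT, 10.84 and 10.85 in K655/657Q, and 11.07 and 11.10 in K655/657R. WT replicate 2 thus lay with K655/657Q. Arginine and lysine genes stood in the order WT, K655/657R, K655/657Q, with medians over WT of -0.61 and -0.67 for K655/657Q and of -0.16 and -0.30 for K655/657R.

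The same mutants in other media gave a different picture. In YPD, 574 genes were called higher in K655/657Q than in K655/657R (9.03%) and 654 lower (10.3%). That split turns with the scaling: 1203 higher and 362 lower with TPM as deposited, and 1980 and 239 with ACT1 as the reference. The YPD counts by direction below hold for median-of-ratios scaling. In raffinose, just before glucose, 60 were higher (0.944%) and 64 lower (1.01%). These comparisons use other libraries. Of the 151 genes called higher at 15 min, 23 were also called higher in YPD (15.2% of the 151 and 4.01% of the 574) and 45 were called lower there (29.8% of the 151 and 6.88% of the 654). Of the 177 called lower at 15 min, 44 were called lower in YPD (24.9% of the 177 and 6.73% of the 654) and 54 higher (30.5% of the 177 and 9.41% of the 574). In raffinose, 24 of the 151 were called higher (15.9%, or 40% of the 60) and 12 of the 177 lower (6.78%, or 18.8% of the 64).

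RiBi genes turned over between the media. In YPD 120 of 181 were called higher in K655/657Q and none lower (median 0.71), in raffinose none was higher and 5 were lower (median -0.24), and at 15 min the median was -0.45. The test of the difference between the effect at 15 min and that in YPD called 167 of the 181 lower and none higher, against 12.6% lower and 13.8% higher among all genes. MAK16 shows the pattern: in YPD K655/657Q had 24.3 and 22.6 against 13.7 and 14.6 in K655/657R, and at 15 min the order was reversed. Some genes outside the RiBi lists had the opposite change. MET6 was lower in YPD (59.7 and 63.4 against 260 and 265, -2.08) and higher at 15 min, as were CIT2 (-1.76 in YPD), SNZ1 (-2.60) and CUP1-1, with 986 and 990 in K655/657Q and 15060 and 12980 in K655/657R in YPD (-3.82). Of the 19 arginine and proline genes, 13 were called lower in YPD (median -1.04), where 3 had a value above 0, against 5 at 15 min. ARG4 stood there at 68.9 and 76.3 against 423 and 399.

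**Figure D4:**
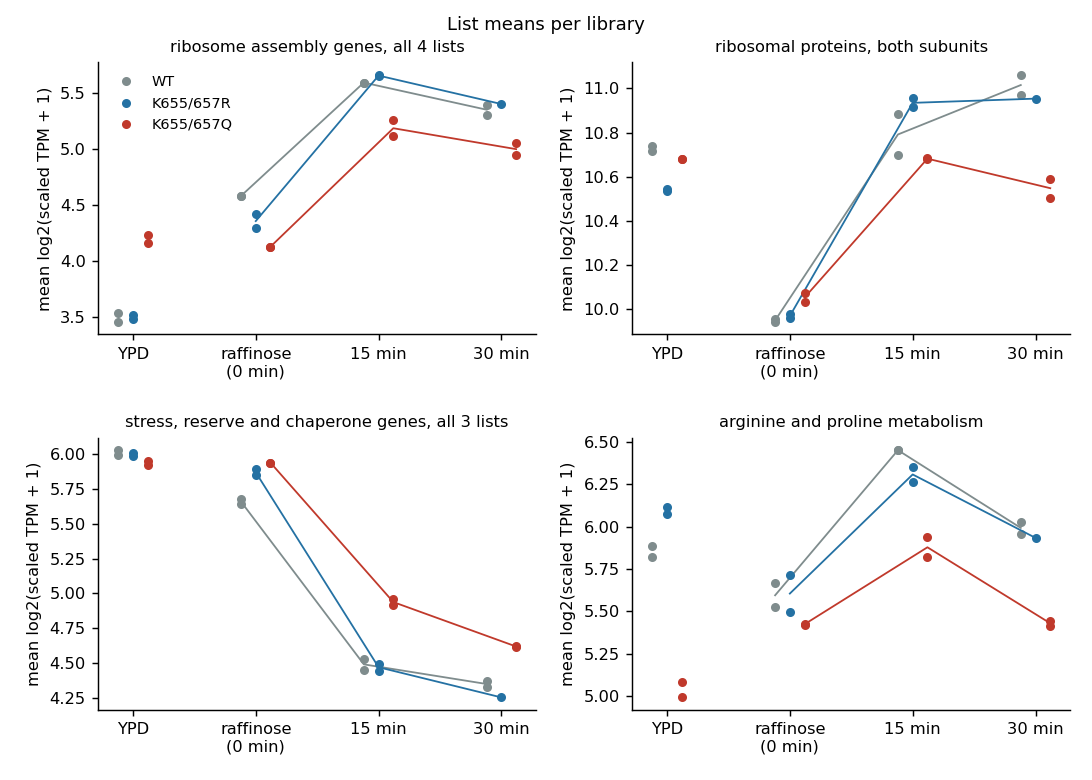
Mean log2(scaled TPM + 1) of RiBi, RP, stress with storage and chaperone, and arginine with proline genes in each library, by strain and condition; lines join the strain means in raffinose, at 15 min and at 30 min, and K655/657R has 1 library at 30 min. RiBi means of K655/657Q lie above those of K655/657R in YPD (4.23 and 4.16 against 3.51 and 3.49) and below them at 15 min (5.25 and 5.11 against 5.65 and 5.66), and the stress means fall less from raffinose to 15 min in K655/657Q.

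The response to glucose itself was then compared, as the change from raffinose to 15 min in K655/657Q minus that in K655/657R. It differed for 201 genes (3.16%), 124 with a higher value in K655/657Q (1.95%) and 77 with a lower one (1.21%). The count was 120 without K655/657Q 15 min replicate 2, 127 without K655/657Q raffinose replicate 2, and 88 when only the 8 libraries concerned were fitted. Both mutants raised RiBi genes, by a median of 1.09 in K655/657Q and 1.32 in K655/657R, and the difference was called for 4 of 181, all lower and all pre-60S factors. RP genes rose by a median of 0.60 and 0.98, with 4 of 137 called lower. Stress, storage and chaperone genes dropped by a median of 0.69 in K655/657Q and 1.18 in K655/657R, and 22 of 95 were called as higher in K655/657Q. DDR2, for instance, went from 1482 and 1553 in raffinose to 119 and 147 in K655/657Q, and from 2122 and 1703 to 49.5 and 60.2 in K655/657R (difference 1.59, adjusted p = 0.00087). Genes for gluconeogenesis, the glyoxylate cycle and acetate or ethanol use dropped by medians of 1.78 and 2.68, with 18 of 40 called higher in K655/657Q and 1 lower. In this group the raffinose values differed as well, with 15 of 40 called lower in K655/657Q before glucose.

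For the arginine list, 7 of 19 were called with a lower and 3 with a higher response in K655/657Q, against 1.21% and 1.95% of all genes. ARG4 rose from 68.1 and 57.9 in raffinose to 187 and 207 in K655/657R, while K655/657Q went from 63.4 and 62.9 to 70.2 and 80.4, so that the mutants were alike in raffinose and apart at 15 min (difference -1.39, adjusted p = 3.7e-05). ARG3 rose in both, by 1.84 in K655/657Q and 3.04 in K655/657R. PDR12 likewise started level, at 2.96 and 3.09 against 2.58 and 2.65, and ended at 12.1 and 13.8 against 34.2 and 30.1 (difference -1.40, adjusted p = 4e-06). CIT2 fell by 0.36 in K655/657Q and by 2.20 in K655/657R (difference 1.84). In contrast, the glycine cleavage gene GCV1 was already apart in raffinose (50.9 and 60.6 against 21.4 and 25.6), and its response did not pass the test of difference (-0.18, adjusted p = 0.52).

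At 30 min K655/657R had a single library, as the study left out its second, so these are values with no test. The genes called higher at 15 min had a median of 0.51 for the mean of the 2 K655/657Q libraries over that library, with 147 of 151 above 0. Those called lower had a median of -0.56, with 172 of 177 below 0. RiBi genes stood at a median of -0.41 (178 of 181 below 0), RP genes at -0.39 (all 137 below 0), and stress, storage and chaperone genes at 0.35 (87 of 95 above 0). MAK16 had 53.2 and 48.3 in K655/657Q, 84.5 in K655/657R and 77.3 and 89.3 in WT. DDR2 had 69.5 and 54.9, 21.3, and 20.4 and 29.3 in the same order.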

How the data were processed

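RNA-seq was performed on poly(A) RNA from 24 yeast samples, with directional libraries from total RNA extracted by hot phenol. Per the methods and the submitters' processing notes, reads were trimmed (fastp 0.23.2), inspected (FastQC 0.11.9, MultiQC 1.12) and pseudoaligned with kallisto 0.48.0, using Ensembl transcripts of build R64-1-1. The authors deposited one table of TPM, in which each transcript has 1 value in every library. The strand setting of kallisto is not given in the sources used here. The study's own test, DESeq2, needs counts, which were not used here. Instead, TPM were divided by median-of-ratios size factors and tested as log2(value + 1) in R 4.3.3 with limma 3.58.1 (lmFit, eBayes with trend, 11 residual degrees of freedom), over 23 libraries. The second 30 min library of K655/657R was not fitted, because the study did not use it either. Genes with a mean TPM under 1 were left out. The script was tested on simulated data. Figures were drawn with matplotlib 3.10.9, and tables were made with numpy 2.4.6 and pandas 2.3.3 under Python 3.11.15.

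The comparison, the 49 gene lists and the tests were chosen with earlier results of these data known, so no list is independent evidence. A list is described by its counts and median beside those of all genes, with no test. The text names the 15 genes with the largest changes in each direction, among those called, not overlapping between the mutants and at 10 TPM or more on average, the genes measured by RT-qPCR in the study with SFP1, up to 3 called members per list and direction, the 5 largest response differences per direction, and auxotrophic markers. ARG1, ARG7 and MFA1 were named after their values were seen. Some genes are not reported here. MRP8 is in a ribosomal list only by its name and is not a ribosomal protein. Coordinates and sequences are from RefSeq R64, which matched 5929 transcripts. Alternatives changed the pseudocount, filter, scaling, libraries fitted, fold threshold and replicate block, or left out each library in turn.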

Additional observations from a re-analysis of the deposited data

Results flagged for a closer look

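The change from raffinose to 15 min differed between the mutants for 201 genes, and the difference between the mutants at 15 min differed from that in YPD for 1678 genes, both by the test of the difference in limma. The largest response differences, K655/657Q minus K655/657R on the log2 scale, were -1.65 for MNC1, -1.40 for PDR12, -1.40 for DIA1, -1.39 for ARG4 and -1.30 for YER068C-A on the lower side. On the higher side they were 2.58 for YHR054W-A and YHR052W-A, 2.25 for CUP1-1 and CUP1-2, and 1.84 for CIT2.

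MNC1 and DIA1 belong to another pattern than ARG4 and PDR12. MNC1 had 368 and 298 in K655/657Q and 99.8 and 162 in K655/657R in raffinose, and 109.4 and 125 against 169 and 119 at 15 min, where the groups overlapped. DIA1 had 35.5 and 31.3 against 11.2 and 18.6 in raffinose, and 15.9 and 16.3 against 21.3 and 17.4 at 15 min. Their response differences therefore come with a difference before glucose, while those of ARG4 and PDR12 come with a difference after it. CUP1-1 had 1016 and 1091 against 1057 and 1428 in raffinose and was apart at 15 min. Its cause was not tested.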

How the results depend on the processing

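Calls between the mutants at 15 min numbered 328. A replicate block by number within each condition gave 324 for that count, and a replicate block by culture over time gave 210 for the response difference of 201. Among named genes the first of these changed only the call of HSP12. The numbers were not taken to pair the samples: same-numbered deviations correlated at -0.0875 between the mutants at 15 min, and between raffinose and 15 min at 0.117 in K655/657R and -0.14 in K655/657Q. With the K655/657Q numbers at 15 min exchanged, a pairing chosen after seeing the data, the response count was 200. Leaving out 1 library at a time gave 264 to 437 calls at 15 min, 120 to 250 response differences, 30 to 76 RiBi and 0 to 2 RP genes called lower, a median of -0.48 to -0.33 for the arginine and proline list and of 0.15 to 0.38 for the tricarboxylic acid cycle.

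With ACT1 as the reference, 663 genes were called at 15 min (62 higher, 601 lower), 304 in the response, 2219 in YPD, 3 between K655/657R and WT and 3316 in the effect at 15 min minus that in YPD. The RiBi, stress and RP lists then had 123 lower, 18 higher and 21 lower. Medians under that scaling were -0.68 for RiBi, -0.48 for RP, 0.28 for stress, -0.70 for arginine and proline, -0.59 for lysine, -0.76 for branched-chain, -0.016 for sulfate and methionine, -0.052 for glycolysis, 0.047 for the tricarboxylic acid cycle and 0.017 for proteasome genes. With TPM as deposited, 30 RiBi genes were called lower, and medians were -0.15 for RP, 0.56 for stress, -0.26 for lysine, 0.30 for sulfate and methionine, 0.35 for the tricarboxylic acid cycle and 0.34 for proteasome genes. A pseudocount of 5 gave a stress median of 0.33 and 200 calls for K655/657Q against WT.

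Without the fold change threshold, 1855 genes passed at 15 min, 469 in the response, 3360 in YPD, 766 in raffinose, 1426 for K655/657Q against WT and 2983 in the effect at 15 min minus that in YPD. The response count was 112 over all 24 libraries and 88 over the 8 libraries concerned, where fewer libraries estimate the spread. Of 124 named genes called at 15 min, 73 kept the call under every alternative run, 51 lost it under at least 1, and none changed sign. Since the table gives no counts, the depth behind low genes is unknown.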
